A study of Rattus norvegicus with 24 samples.

Results

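The S100 genes encode small calcium-binding proteins, and 10 of them were described here in 2 brain regions of rats, perilesional cortex and ipsilateral thalamus, 3 months after traumatic brain injury (TBI): S100a1, S100a4, S100a6, S100a8, S100a9, S100a10, S100a11, S100a13, S100a16 and S100b. They were found by gene name in the annotation, where each of the 10 names had exactly 1 locus among 26641 loci with a gene name. The mean over the 24 libraries would have chosen among loci that share a name, but no member was selected on it. The 10 names themselves were chosen with earlier results of these data known. Polyadenylated RNA was sequenced from 6 rats with lateral fluid-percussion injury and 6 sham-operated controls, all adult male Sprague-Dawley rats, and each rat gave 1 library of each region, so that 24 libraries fell into 4 groups of 6. Lateral fluid-percussion injury drives a pulse of fluid onto the exposed dura, and the injured rats had been chosen for signs of chronic inflammation, so they do not stand for every injured rat. The comparisons asked which S100 genes differed between TBI animals and sham-operated controls in each region, whether that effect differed between the regions, and how the regions differed in rats of the same treatment.

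S100 proteins carry a pair of calcium-binding loops called EF hands and mostly act as dimers. Binding of calcium opens a surface that grips partner proteins such as annexins, cytoskeletal proteins and ion channels. Several members also leave the cell and act on receptors, among them the receptor for advanced glycation end products (Ager) and Toll-like receptor 4 (Tlr4). In the brain S100b is best known as a protein of astrocytes and is measured in blood after head injury, whereas S100a8 and S100a9 are abundant in neutrophils.

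The values below are normalized counts, that is, numbers of fragments scaled by the authors with 1 size factor per library. Libraries held between 30568927 and 54608922 fragments. A fold change is on the scale of log2(normalized count + 1), its error is a standard error (SE), and adjusted p-values are from limma with Benjamini-Hochberg adjustment over all loci tested. Because bulk tissue was sequenced, fewer or more cells of a type and less or more RNA per cell cannot be told apart. The regional labels were checked on marker genes. Summed over 7 cortex identity genes, the libraries of cortex held 22608 to 33530 normalized counts and those of thalamus 2540 to 4113, and summed over 7 thalamus identity genes the ranges were 4021 to 4867 and 55105 to 114231. TBI rat 45 stood apart from the other TBI rats. Its thalamus library held 256757 normalized counts of 7 choroid plexus markers, against at most 1813 in the other TBI thalamus libraries. Its cortex library held 31518, against at most 818 in the other TBI cortex libraries. Choroid plexus transcripts were not particular to that rat, since sham thalamus rats 34 and 50 held 67614 and 107142. In sham cortex rats 26 and 34 held 23248 and 11020. Values are given with and without rat 45 where a result rests on it.

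In the perilesional cortex, 7 of the 9 S100 genes with enough signal to be tested were higher in TBI animals than in sham-operated controls and none was lower, where 14.3% of 15493 loci were higher, 14.9% were lower and 29.2% passed in either direction. S100a4 had the largest change, followed by S100a6 and S100a11, while S100a13, S100a1, S100a16 and S100b changed by less than 1.5-fold. In each of the 7 the lowest TBI library lay above the highest sham library, a separation that 7.02% of loci showed in that direction. The median log2 fold change of the 9 genes was 0.49, against -0.01 over all loci tested. In the ipsilateral thalamus, 7 of 9 were again higher and none lower, where 14.5% of 15564 loci were higher, 20.9% were lower and 35.4% passed in either direction. S100a10 took the place of S100a11 among them. For 5 of the 9 the groups did not overlap, as for 7.46% of loci in that direction, and the median was 0.62 against -0.02 over all loci. That median was the value of S100a9, which did not pass and reached the mean needed for testing only through the TBI group. Because the genes were chosen with earlier results of these data known, these shares describe them and do not test them as a group. Neuron markers were lower in the same comparisons, 5 of 8 in the cortex and 7 of 8 in the thalamus. Their summed normalized count was 296964 to 316442 in sham cortex, 214268 to 279538 in TBI cortex, 224436 to 261629 in sham thalamus and 147871 to 195971 in TBI thalamus, with none of the 8 at or under 3 fragments throughout a group. The part of the neuron content in the S100 counts was not tested.

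**Figure D1:**
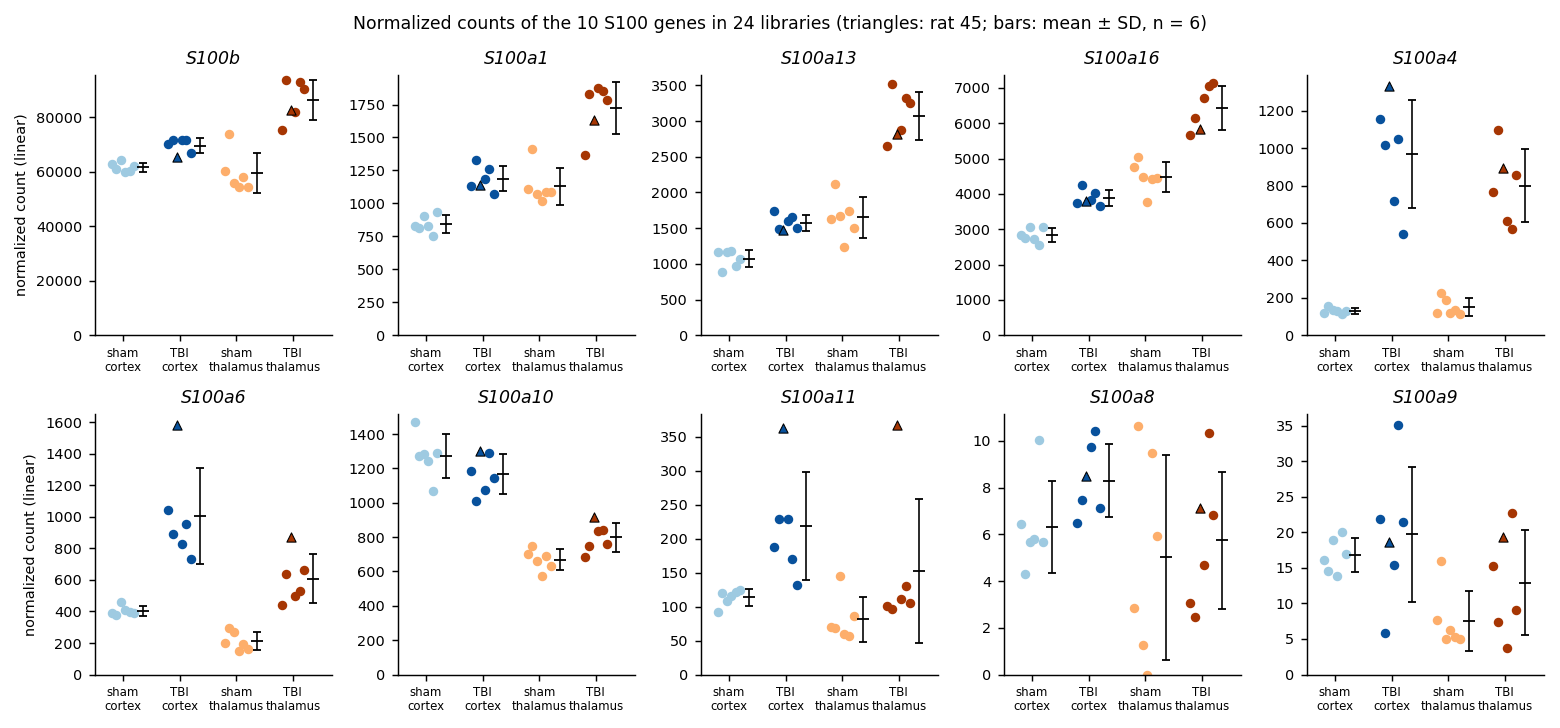
Normalized counts (linear axis from 0) of the 10 S100 genes in each of the 24 libraries, with 6 libraries in each of 4 groups along the horizontal axis, rat 45 as triangles and bars for the mean ± SD. S100a4 was between 114 and 227 in the sham libraries and between 543 and 1332 in the TBI libraries, while the groups of S100a8 overlapped.

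S100a4 binds the heavy chain of non-muscle myosin and is known from moving cells. In the cortex its normalized count was 114 to 159 in sham-operated controls (median 129) and 543 to 1332 in TBI animals (median 1031). In the thalamus it was 116 to 227 in sham-operated controls (median 126) and 570 to 1096 in TBI animals (median 813). Every TBI library of either region thus lay more than 2-fold above every sham library of either region. The mean rose from 131 ± 15.7 to 968 ± 290 in the cortex (SD, n = 6), a log2 fold change of 2.83 ± 0.18 or 7.10-fold (adjusted p = 4.85e-07, limma). In the thalamus it rose from 151 ± 46.4 to 799 ± 195, a log2 fold change of 2.41 ± 0.19 or 5.33-fold (adjusted p = 8.08e-07, limma). The rats varied among themselves: the coefficient of variation was 29.9% in TBI cortex against 12.0% in sham cortex, and rat 63 had the lowest and rat 45 the highest cortical value. Without rat 45 the log2 fold change was 2.72 in the cortex and 2.37 in the thalamus, so the change was of similar size without it.

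S100a6, also called calcyclin, binds annexins and the calcyclin-binding protein Cacybp. In the cortex it was 377 to 462 in sham-operated controls (median 393) and 730 to 1582 in TBI animals (median 923). Its thalamic values were 150 to 297 in sham-operated controls (median 195) and 438 to 875 in TBI animals (median 583). The groups were separate in both regions, and rat 45 was the 1 TBI thalamus library within the range of TBI cortex. The log2 fold change was 1.27 ± 0.14 in the cortex (2.41-fold, adjusted p = 2.34e-05, limma) and 1.52 ± 0.19 in the thalamus (2.87-fold, adjusted p = 3.54e-05, limma). Rat 45 was the highest TBI animal in both regions, at 1582 in the cortex and 875 in the thalamus. Without it the TBI means were 890 ± 120 and 554 ± 95.6 (SD, n = 5), and the log2 fold changes 1.13 and 1.41.

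S100a4 and S100a6 lie 7448 bases apart in the cluster of S100a genes and had the largest cortical changes of the members. Their promoters are shown beside that of S100b, which lies on another chromosome, so that the start sites can be read together. Among the 7 members that passed in the cortex S100b changed least, while S100a9 and S100a10, which did not pass, had smaller differences. The sequences are from RefSeq on the build GRCr8 and run 5′ to 3′ on the strand of the gene over 300 bases that end 50 bases after the start site. Capitals mark a match to 1 of 4 motifs searched on both strands, none of which overlaps another in these windows: the TATA box TATAAA, the SP1 motif GGGCGG, the AP-1 motif TGANTCA and the STAT motif TTCNNNGAA. The S100a4 promoter lies at chr2:178388279-178388578 on the plus strand, that of S100a6 at chr2:178398287-178398586 on the plus strand and that of S100b at chr20:12381032-12381331 on the minus strand.
S100a4: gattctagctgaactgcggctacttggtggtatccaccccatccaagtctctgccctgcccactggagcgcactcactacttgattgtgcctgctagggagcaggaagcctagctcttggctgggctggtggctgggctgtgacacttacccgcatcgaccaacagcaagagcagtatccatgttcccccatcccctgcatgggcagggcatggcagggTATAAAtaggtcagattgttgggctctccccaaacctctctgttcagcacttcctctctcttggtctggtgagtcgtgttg
S100a6: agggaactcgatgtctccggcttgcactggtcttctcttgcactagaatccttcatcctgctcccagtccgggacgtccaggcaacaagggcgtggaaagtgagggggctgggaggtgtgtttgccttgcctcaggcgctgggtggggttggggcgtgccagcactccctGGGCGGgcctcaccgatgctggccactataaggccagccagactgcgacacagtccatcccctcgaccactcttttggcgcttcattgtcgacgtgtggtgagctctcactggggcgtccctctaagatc
S100b: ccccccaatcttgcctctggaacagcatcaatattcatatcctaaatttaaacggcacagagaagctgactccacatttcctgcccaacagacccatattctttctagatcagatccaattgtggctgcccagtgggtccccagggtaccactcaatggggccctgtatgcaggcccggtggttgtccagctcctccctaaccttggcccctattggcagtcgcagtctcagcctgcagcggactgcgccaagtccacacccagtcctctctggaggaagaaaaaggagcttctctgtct
The match in S100a4 was to the TATA box, which 14.2% of 33469 rat promoters of this length held. S100a6 matched the SP1 motif, held by 33.1% of promoters, and S100b matched none of the 4. Of the 10 S100 genes, 7 had a promoter in the table. S100a13 and S100a11 matched the SP1 motif, S100a9 the TATA box and S100a16 none, and neither the AP-1 motif, in 7.3% of all promoters, nor the STAT motif, in 8.9%, was found in any of the 7. A match is a string of letters and not a site of binding.

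S100a11 binds annexin A1 and is known from epithelial and connective tissue cells. In the cortex it was 91.5 to 125 in sham-operated controls (median 118) and 132 to 363 in TBI animals (median 208). The groups did not overlap, and the log2 fold change was 0.87 ± 0.19 (1.83-fold, adjusted p = 0.00301, limma). In the thalamus it was 56.7 to 145 in sham-operated controls (median 69.3) and 96.6 to 368 in TBI animals (median 108). There the groups overlapped, 1 TBI library lay above every sham library, and the difference of 0.78 ± 0.31 did not pass (adjusted p = 0.0646, limma). That library was rat 45, which was also the highest in the cortex. Without it the thalamic TBI mean was 109 ± 13.2 (SD, n = 5) and the log2 fold change 0.49 (adjusted p = 0.0866, limma), and without sham rat 34, the highest control at 145, the log2 fold change was 0.97 and passed (adjusted p = 0.0227, limma). In the cortex the log2 fold change without rat 45 was 0.71 (adjusted p = 0.0029, limma).

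Markers of fibroblasts and meninges moved with S100a11. Over all loci tested, 14.3% were higher in the cortex and 14.5% in the thalamus. Of the 8 markers, 7 were higher in the cortex of TBI animals and 1, Pdgfrb, in the thalamus. Their summed normalized count was 9454 to 12089 in sham cortex, 13478 to 29458 in TBI cortex, 2656 to 7713 in sham thalamus and 3208 to 27217 in TBI thalamus, and none of the 8 was at or under 3 fragments throughout a group. The highest libraries were those of rat 45 in both regions of TBI animals and that of rat 34 in sham thalamus, and without rat 45 the highest were 21076 and 4287. These are the same libraries that were highest for S100a11 in TBI animals and in sham thalamus. Other lists moved with S100a11 too. Its deviations from the group means had r = 0.89 with the fibroblast and meningeal sum, 0.72 with erythroid and 0.68 with ependymal markers. Without rat 45 these were 0.71, 0.48 and 0.56. With microglia markers r was 0.02 and with neuron markers -0.65, and 0.13 and -0.37 without rat 45. The part of any of these cells in the S100a11 result was not tested.

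**Figure D2:**
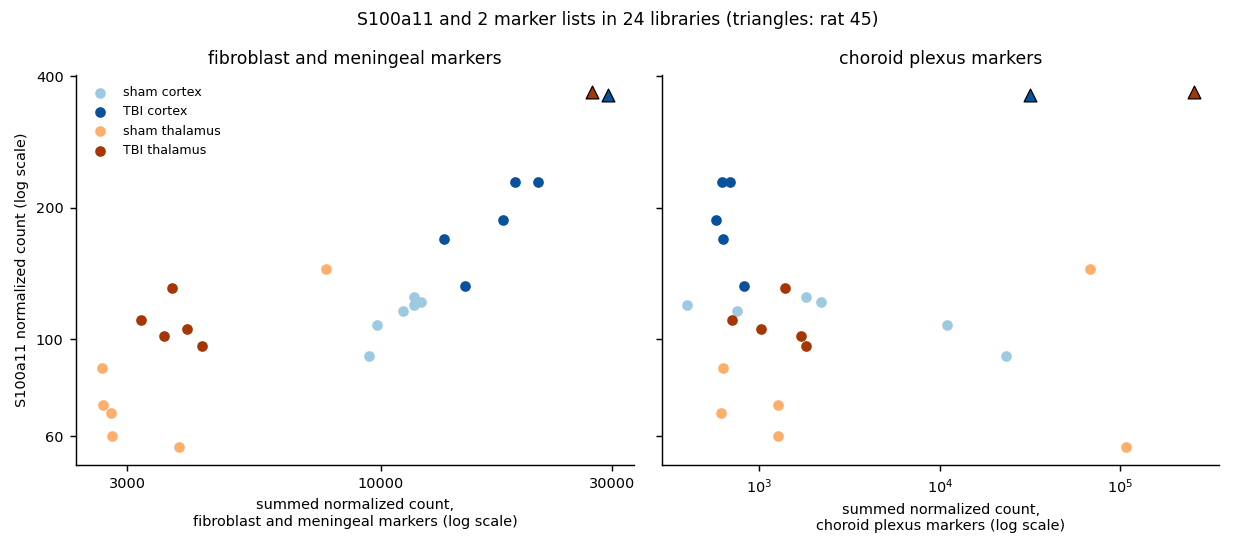
S100a11 normalized count (vertical, log scale) against the summed normalized count of 8 fibroblast and meningeal markers (left, log scale) and 7 choroid plexus markers (right, log scale), 1 point per library, coloured by group, with rat 45 as triangles. The libraries of rat 45 had S100a11 at 363 and 368, and sham thalamus libraries with 67614 and 107142 choroid plexus counts had it at 145 and 56.7.

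S100a13 takes part in the release of Fgf1 and Il1a, proteins without a signal peptide. In the cortex it was 891 to 1181 in sham-operated controls (median 1116) and 1467 to 1741 in TBI animals (median 1551). Its thalamic values were 1231 to 2113 in sham-operated controls (median 1650) and 2646 to 3520 in TBI animals (median 3065). The groups were separate in both regions. The log2 fold change was 0.56 ± 0.08 in the cortex (1.47-fold, adjusted p = 0.000116, limma) and 0.91 ± 0.11 in the thalamus (1.88-fold, adjusted p = 2.7e-05, limma).

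S100a1 is known as a modulator of calcium release through ryanodine receptors. In the cortex it was 753 to 932 in sham-operated controls (median 829) and 1069 to 1330 in TBI animals (median 1160). In the thalamus it was 1018 to 1409 in sham-operated controls (median 1087) and 1368 to 1877 in TBI animals (median 1807). The thalamic groups overlapped because sham rat 32, at 1409, lay above the lowest TBI animal, rat 22 at 1368. The log2 fold change was 0.49 ± 0.07 in the cortex (1.40-fold, adjusted p = 0.000121, limma) and 0.61 ± 0.09 in the thalamus (1.52-fold, adjusted p = 0.000159, limma). Ryr2, the ryanodine receptor on the list of partners, did not pass in either region, with log2 fold changes of -0.06 and 0.22. An unnamed assembled locus covers the same interval as S100a1 and was not analysed here. The library kit marks strand, but whether counting used it is not given in the sources used here.

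S100a16 is a widely expressed member of the family. It was 2549 to 3073 in sham cortex (median 2797) and 3662 to 4266 in TBI cortex (median 3813), and 3767 to 5032 in sham thalamus (median 4470) and 5666 to 7149 in TBI thalamus (median 6429). It did not overlap between TBI animals and sham-operated controls in either region and varied little within groups, with coefficients of variation of 5.8% to 9.8%. The log2 fold change was 0.46 ± 0.06 in the cortex (1.37-fold, adjusted p = 4.71e-05, limma) and 0.52 ± 0.08 in the thalamus (1.43-fold, adjusted p = 0.000137, limma).

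S100b is a calcium sensor of astrocytes that is also made by some oligodendrocytes. In the cortex it was 59810 to 64289 in sham-operated controls (median 61594) and 65498 to 71768 in TBI animals (median 71030). Its thalamic values were 54485 to 73895 in sham-operated controls (median 57183) and 75531 to 93705 in TBI animals (median 86716). The groups were separate in both regions, narrowly in the thalamus, where sham rat 32 lay close to the lowest TBI animal. The log2 fold change was 0.17 ± 0.04 in the cortex (1.13-fold, adjusted p = 0.0059, limma) and 0.54 ± 0.08 in the thalamus (1.45-fold, adjusted p = 0.000222, limma). Among all loci tested in TBI animals against sham-operated controls, 14.3% were higher and 14.9% lower in the cortex. In the thalamus these shares were 14.5% and 20.9%. Of 9 astrocyte markers, 3 were higher and 3 lower in the cortex of TBI animals and 3 were higher and none lower in the thalamus. Aqp4, Aldh1l1 and Gja1 were the markers that rose in both, with Aqp4, the water channel of astrocyte endfeet, up by a log2 fold change of 0.68 in the cortex and 1.07 in the thalamus. The summed level of the 9 markers was 373652 to 401415 in sham cortex, 324773 to 390664 in TBI cortex, 265681 to 278956 in sham thalamus and 285444 to 322723 in TBI thalamus, so the sum did not move with S100b in the cortex and moved with it in the thalamus. Of 8 oligodendrocyte markers, 3 were higher in the cortex and none in the thalamus. Microglia markers moved with S100b in both regions: of 9, 8 were higher in the cortex and 9 in the thalamus. For 6 of the 9 the rise was larger in the thalamus, against 2.72% of all loci with a more positive effect there. The summed median of the 9 went from 15040 to 21503 in the cortex and from 17953 to 34453 in the thalamus. The part of these cell types was not tested.

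S100a10, also called p11, forms a complex with annexin A2 and carries membrane proteins such as Htr1b and Kcnk3 to the cell surface. In the cortex it was 1067 to 1473 in sham-operated controls (median 1281) and 1010 to 1303 in TBI animals (median 1167), with a difference of -0.12 ± 0.08 that did not pass (adjusted p = 0.266, limma). In the thalamus it was 573 to 748 in sham-operated controls (median 674) and 686 to 915 in TBI animals (median 797). Of the 6 TBI libraries, 5 lay above every sham library, and the log2 fold change of 0.26 ± 0.08 passed (1.19-fold, adjusted p = 0.0228, limma). That call rested on single libraries, since it was lost without sham rat 38 (0.21, adjusted p = 0.0501) or sham rat 55 (0.24, adjusted p = 0.052).

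S100a8 and S100a9 form calprotectin, a protein that neutrophils hold in large amounts and that acts on Tlr4. S100a8 was near the limit of detection, with 5 to 12 fragments in each cortex library and 0 to 15 in each thalamus library, and was too low to be tested. Its normalized count was 6.32 ± 1.96 in sham cortex, 8.29 ± 1.55 in TBI cortex, 5.02 ± 4.38 in sham thalamus and 5.74 ± 2.94 in TBI thalamus (SD, n = 6). At or under 3 fragments, the floor used here for counting error, were 3 sham thalamus and 2 TBI thalamus libraries. S100a9 was 13.9 to 20.1 in sham cortex (median 16.6) and 5.82 to 35.1 in TBI cortex (median 20.1), and 4.95 to 15.9 in sham thalamus (median 5.74) and 3.76 to 22.7 in TBI thalamus (median 12.1). The groups overlapped in both regions, and neither the cortical difference of 0.07 ± 0.31 (adjusted p = 0.886, limma) nor the thalamic one of 0.62 ± 0.41 (adjusted p = 0.266, limma) passed. In the thalamus S100a9 reached the mean of 10 needed for testing only through the TBI group. It was tested there in 8 of the 12 fits that leave out 1 library, and not in the fit without rat 45. With standard errors of this size, a difference as small as that of S100b was not detectable in S100a9 at this depth. Of 10 neutrophil markers 2 were testable in the cortex and 3 in the thalamus, and Csf3r, which microglia also express, was the 1 that rose in each region. Of all loci tested, 14.3% rose in the cortex and 14.5% in the thalamus. Elane and Ngp were at or under 3 fragments in every library of each group.

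**Figure D3:**
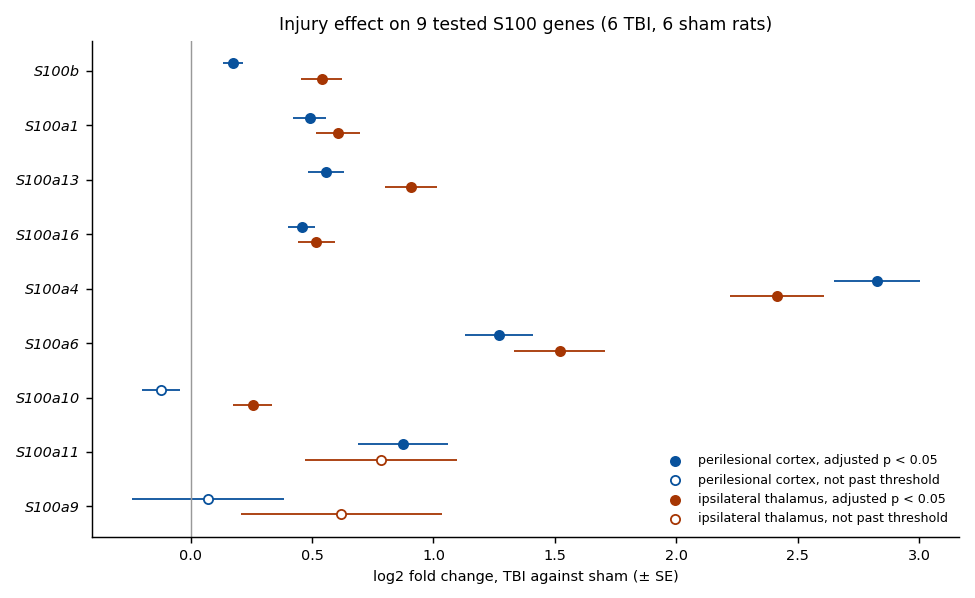
Log2 fold change of TBI animals against sham-operated controls (horizontal, ± SE) for the 9 tested S100 genes (vertical) in the perilesional cortex (blue) and the ipsilateral thalamus (orange), filled where the adjusted p passed. S100a4 had the largest log2 fold change in both regions, at 2.83 and 2.41, and S100a10 lay on either side of 0, at -0.12 and 0.26.

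The effect of injury differed between the regions for 2 of 9 S100 genes, where 7.26% of 15678 loci passed the test of the difference 2.72% with a more positive and 4.54% with a more negative effect in the thalamus. S100b rose more in the thalamus than in the cortex, by a log2 difference of 0.37 ± 0.09 (adjusted p = 0.015, limma). For S100a10 the difference was 0.38 ± 0.12 (adjusted p = 0.0451, limma), between a rise in the thalamus and a cortical log2 fold change of -0.12 that did not pass. The S100b call held without any 1 of the 24 libraries, while the S100a10 call was lost in 18 of 24 such fits. Blocking on the rat kept both calls, at an adjusted p of 0.00724 for S100b and 0.0231 for S100a10. For S100a13 the difference was 0.35 ± 0.14 and did not pass (adjusted p = 0.126, limma), except without sham thalamus rat 32 (0.43, adjusted p = 0.0406). For S100a4, S100a6, S100a11, S100a1, S100a16 and S100a9 no difference between the regions passed, which does not show that the effects were equal, since the SE was 0.28 for S100a4 and 0.39 for S100a11.

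The regions themselves differed in sham-operated controls for 7 of 9 S100 genes, where 62.2% of 15582 loci differed, 33.9% higher and 28.3% lower in the thalamus. Thalamus was higher than cortex for S100a16 (log2 fold change 0.66 ± 0.07, adjusted p = 3.02e-07), S100a13 (0.61 ± 0.11, adjusted p = 0.000149) and S100a1 (0.42 ± 0.08, adjusted p = 0.000202). It was lower for S100a9 (-1.17 ± 0.28, adjusted p = 0.00169), S100a6 (-0.97 ± 0.15, adjusted p = 2.73e-05), S100a10 (-0.93 ± 0.08, adjusted p = 3.87e-08) and S100a11 (-0.55 ± 0.19, adjusted p = 0.0206). S100a9 reached the mean of 10 needed for testing only through the cortex. In sham thalamus rat 32 held 15.9 and the others 4.95 to 7.64. Its call, counted among the 7, thus compares a low level with one near the floor of 3 fragments. The S100a11 call was lost without sham thalamus rat 50 (-0.47, adjusted p = 0.0504). The share higher (3 of 9) was near that over all loci. The shares called (7 of 9) and lower (4 of 9) were above those over all loci, but this amounts to few genes and was not tested. S100a4 and S100b did not pass, S100b at -0.06 ± 0.07 (adjusted p = 0.446), but without sham thalamus rat 32 S100b was lower in the thalamus (-0.12, adjusted p = 0.0192). All 8 fibroblast and meningeal markers were lower in sham thalamus than in sham cortex, and their part in the lower S100a6, S100a10 and S100a11 was not tested.

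In TBI animals the thalamus differed from the cortex for 6 of 9, where 57.5% of 15737 loci differed, 31% higher and 26.5% lower in the thalamus. S100a13 (0.96 ± 0.07, adjusted p = 3.8e-08), S100a16 (0.72 ± 0.07, adjusted p = 2.39e-07), S100a1 (0.54 ± 0.08, adjusted p = 5.23e-05) and S100b (0.31 ± 0.06, adjusted p = 0.000922) were higher in the thalamus, and S100a6 (-0.72 ± 0.19, adjusted p = 0.00409) and S100a10 (-0.55 ± 0.08, adjusted p = 4.44e-05) were lower. S100a11 was at -0.64 ± 0.31 and did not pass (adjusted p = 0.0924), but passed with the rat as a block (adjusted p = 0.00619) and without both libraries of rat 45 (-0.77, adjusted p = 0.000691). Ordered by mean, the genes followed several patterns over the 4 groups. S100a13 and S100a16 ran from sham cortex through TBI cortex and sham thalamus to TBI thalamus, and S100a1 had the same ends with the middle pair exchanged. The middle groups of S100a13, at 1575 ± 109 and 1650 ± 289 (SD, n = 6), overlapped, as did those of S100a16, at 3887 ± 225 and 4488 ± 422, and of S100a1, at 1131 ± 140 and 1186 ± 95.2. S100a6 and S100a11 ran from sham thalamus through sham cortex and TBI thalamus to TBI cortex, and their middle groups overlapped too. These were at 404 ± 30.7 and 607 ± 156 for S100a6 and at 114 ± 12.4 and 152 ± 106 for S100a11. For S100a11 this order rested on rat 45, without which its TBI thalamus mean was 109 ± 13.2 (SD, n = 5), below that of sham cortex. These middle pairs differ in both region and treatment and were not tested. S100a4 stood low in both sham groups and high in both TBI groups, and its regional differences did not pass in either treatment. S100b ran from sham thalamus and sham cortex, whose difference did not pass, through TBI cortex to TBI thalamus. S100a10 was lowest in sham thalamus and highest in sham cortex, and S100a9 was lowest in sham thalamus and highest in TBI cortex.

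Of the 10 genes, 9 lie together on chromosome 2, between 209330967 and 211013941 in the coordinates of the deposited annotation, a span of 1683 kb, and S100b lies alone on chromosome 20. The span holds 22 loci with a gene name, 13 of them S100 genes, and the other 9 had mean normalized counts of at most 0.529 and were not tested. In the first 203 kb stand 11 S100 genes, and S100a10 and S100a11 follow 1433 kb further on. Along the cluster the change was uneven. S100a1, S100a13, S100a14 and S100a16 at its start rose by less than 1 on the log2 scale in either region, and S100a3, S100a4 and S100a6, which stand side by side apart from S100a5, rose by more than 1 in both. Of the S100 genes beyond the 10, S100a3 was 44.7 to 81.6 in sham cortex, 117 to 230 in TBI cortex, 44.5 to 60.1 in sham thalamus and 125 to 191 in TBI thalamus, with log2 fold changes of 1.46 ± 0.17 (adjusted p = 3.66e-05) and 1.52 ± 0.13 (adjusted p = 1.55e-06). The S100a3 locus as assembled is 40.2 kb long and ends 1244 bases before S100a4, so reads of 1 gene counted at the other cannot be told apart. S100a14 rose by 0.71 ± 0.17 (adjusted p = 0.00685) and 0.96 ± 0.16 (adjusted p = 0.000479). S100pbp, which encodes a protein that binds an S100 protein and is no S100 gene, did not pass in either region. S100a5, S100a7a, S100g and S100z held at most 4 fragments in any library.

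**Figure D4:**
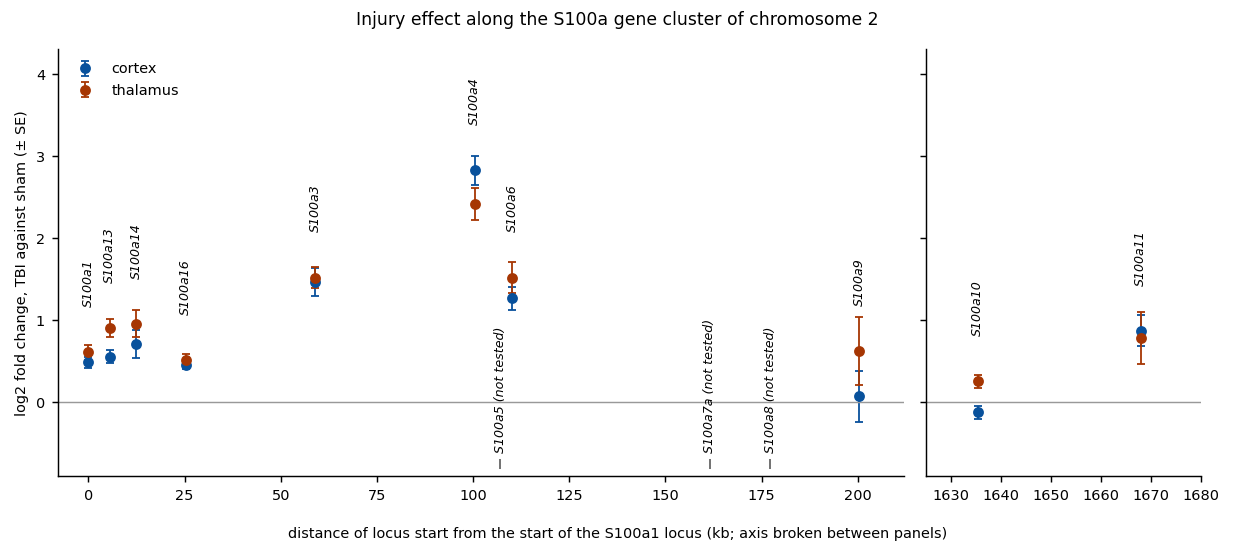
Log2 fold change of TBI animals against sham-operated controls (vertical, ± SE) for the S100 genes of chromosome 2, by distance of each locus from the start of S100a1 in kb (horizontal, broken between the panels), for cortex (blue) and thalamus (orange). The 3 genes with the largest changes, S100a3, S100a4 and S100a6, lie within the first 203 kb, and genes too low to test are marked at the bottom.

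Transcripts of proteins that S100 proteins act on moved in both directions. Of 6 receptors, 2 were higher in TBI animals in the cortex and 2 in the thalamus, and these were Tlr4 and Fgfr1 each time. Of all loci tested, 14.3% were higher and 14.9% lower in the cortex, and 14.5% were higher and 20.9% lower in the thalamus. The median log2 fold change of the 6 was 0.37 and 0.24, against -0.01 and -0.02 over all loci. Tlr4, a receptor of calprotectin, rose by a log2 fold change of 0.61 ± 0.18 in the cortex (adjusted p = 0.018) and 0.92 ± 0.15 in the thalamus (adjusted p = 0.000299). Bsg, also called basigin, fell by 0.29 in the thalamus (adjusted p = 0.00985) and was at 0.02 in the cortex, and this regional difference passed (adjusted p = 0.0438). Ager did not pass in either region, with 0.36 ± 0.13 in the cortex (adjusted p = 0.0568) and 0.18 ± 0.15 in the thalamus (adjusted p = 0.252, limma). Microglia also carry Tlr4, and of 9 microglia markers 8 were higher in the cortex and 9 in the thalamus, with summed counts of 14665 to 15573 in sham cortex, 20137 to 22240 in TBI cortex, 15663 to 19910 in sham thalamus and 31210 to 39795 in TBI thalamus. The part of microglia in these values was not tested.

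Of 18 partners and targets, 6 were higher and 4 lower in the cortex. For comparison, 14.3% of all cortical loci tested were higher and 14.9% lower. In the thalamus 6 of the 18 were higher and 6 lower, where 14.5% of all thalamic loci tested were higher and 20.9% lower. The median log2 fold change of the 18 was -0.01 for cortex and 0.04 for thalamus. Anxa1, the partner of S100a11, rose by 1.65 ± 0.18 in the cortex (adjusted p = 2.65e-05) and 1.40 ± 0.26 in the thalamus (adjusted p = 0.000825). Anxa2, the partner of S100a10, rose by 0.77 ± 0.13 (adjusted p = 0.000574) and 0.91 ± 0.30 (adjusted p = 0.0318). In the thalamus rat 45, at 2282, was the 1 TBI library above every sham library, whose highest was 838, and the TBI median was 742. Without rat 45 the Anxa2 log2 fold change was 0.65 in the cortex (adjusted p = 0.000153) and 0.63 in the thalamus (adjusted p = 0.0322). Annexin genes were not alike, since Anxa6 fell by 0.61 in the cortex (adjusted p = 0.00302) and by 0.69 in the thalamus (adjusted p = 0.000743). Gfap and Vim, intermediate filament proteins of reactive astrocytes that S100b binds or regulates, rose in both regions, Gfap by 2.26 ± 0.14 (adjusted p = 4.85e-07) and 2.26 ± 0.12 (adjusted p = 2.33e-08) and Vim by 1.47 ± 0.16 (adjusted p = 2.33e-05) and 1.28 ± 0.21 (adjusted p = 0.000302). The transcripts of the 2 proteins released with S100a13 did not move alike. Fgf1 rose by 0.42 ± 0.15 in the cortex (adjusted p = 0.0464) and fell by 0.38 in the thalamus (adjusted p = 0.003), a difference that passed (adjusted p = 0.00788). Without rat 45 the cortical rise of Fgf1 no longer passed (0.29, adjusted p = 0.0723), while the fall in the thalamus and the difference still did (adjusted p = 0.00634 and 0.00866). Il1a was at 0.05 ± 0.19 in the cortex and rose by 0.92 ± 0.17 in the thalamus (adjusted p = 0.000719), and this difference passed as well (adjusted p = 0.0306). Cacybp and Myh9, partners of S100a6 and S100a4, passed in neither region. Kcnk3, a channel that S100a10 carries, fell in both regions, by 0.37 (adjusted p = 0.00165) and 0.39 (adjusted p = 0.00308), and Htr1b fell by 0.36 in the thalamus (adjusted p = 0.00896). Of the rest, Syt1, a calcium sensor of synaptic vesicles, fell by 0.30 in the cortex (adjusted p = 0.00126) and by 0.43 in the thalamus (adjusted p = 0.000879). In the paper, quantitative PCR of Syt1 in the ipsilateral thalamus found its expression unaltered. Anxa5 rose by 0.19 in the cortex (adjusted p = 0.0344), and Stk38 by 0.31 in the thalamus (adjusted p = 0.017). Mapt fell by 0.11 in the cortex (adjusted p = 0.0416) and Sugt1 by 0.14 in the thalamus (adjusted p = 0.0402), and neither passed without rat 45 (adjusted p = 0.0917 and 0.0563).

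**Figure D5:**
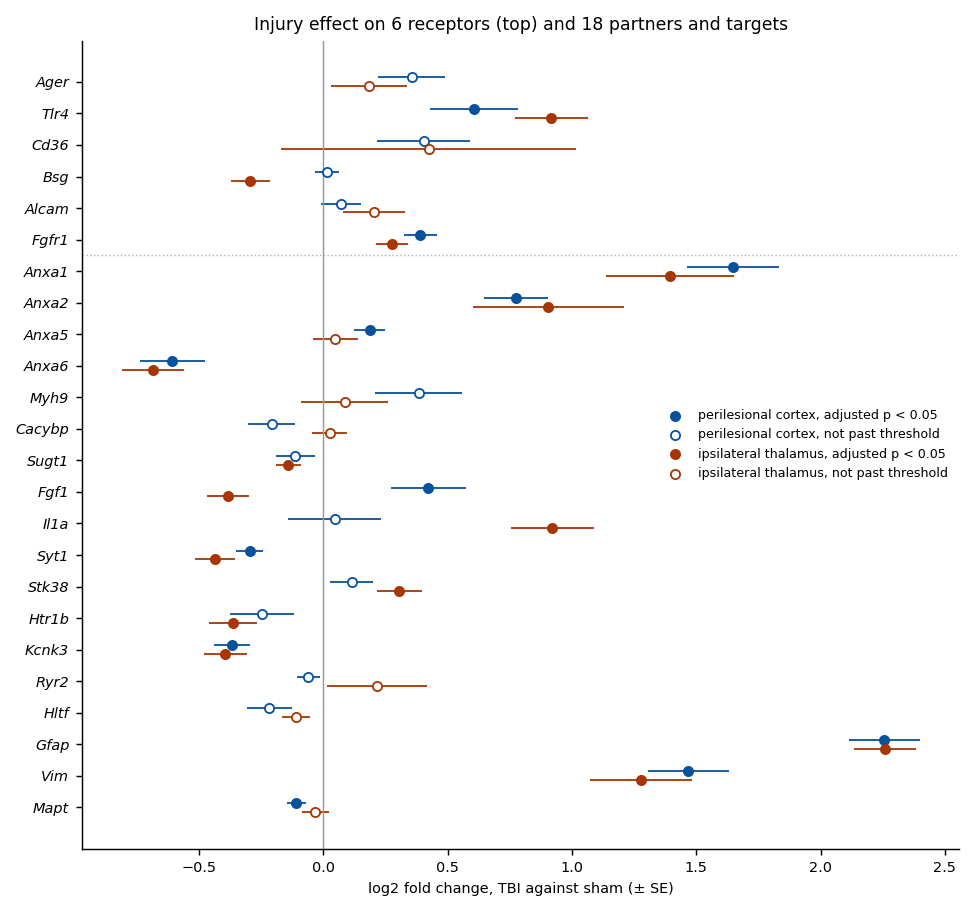
Log2 fold change of TBI animals against sham-operated controls (horizontal, ± SE) for 6 receptors of S100 proteins (above the dotted line) and 18 partners and targets (below), in the perilesional cortex (blue) and the ipsilateral thalamus (orange), filled where the adjusted p passed. Gfap, Anxa1 and Vim lie farthest to the right and Anxa6 farthest to the left.

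Rats also differed within groups, and genes that varied with each member were read from the deviation of each library from its group mean, over 24 libraries and 15669 other loci. As a description with no test, the deviations of S100a11 were most like those of Aebp1 (Pearson r = 0.936) and Col18a1 (r = 0.934), a collagen-associated and a collagen gene. Without rat 45, over 22 libraries, these values were 0.824 and 0.81. Those of S100a6 were most like Scpep1 (r = 0.907) and Myl12a (r = 0.879), at 0.852 and 0.802 without rat 45. Those of S100a4 were most like Slfn13 (r = 0.797) and Axl (r = 0.791), and those of S100b most like Serpine2 (r = 0.834) and Rpl39 (r = 0.815). For S100a10 they were Raly (r = 0.901) and Akt2 (r = 0.752). Ribosomal protein genes were the closest to S100a13, Rpl39 (r = 0.85) and Rpl21 (r = 0.83). For S100a16 the closest was Lamtor4 (r = 0.891), for S100a1 they were Serf2 (r = 0.834) and ENSRNOG00000023901 (r = 0.83), and for S100a9 Mtif2 (r = 0.828) and Pramef8 (r = 0.798). Among the members themselves, S100a1 and S100a16 (r = 0.833), S100a1 and S100b (r = 0.808), S100a13 and S100b (r = 0.77) and S100a4 and S100a6 (r = 0.765) deviated most alike, with values of 0.836, 0.806, 0.761 and 0.767 without rat 45. S100a6 and S100a11 were at 0.63 with that rat and at 0.309 without it. Other pairs rose without it, S100a6 and S100a13 from 0.424 to 0.771 and S100a6 and S100b from 0.363 to 0.713. The order of the pairs thus depended on rat 45. Libraries of 1 rat share the animal, and the points share depth and scaling.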

How the data were processed

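Messenger RNA of 12 rats, 2 regions each, was analysed, 24 libraries in all. Per the labels and the study's methods, the authors made stranded poly(A) libraries, aligned reads with TopHat 2.0.11 and Bowtie2 2.2.2 and assembled loci with Cufflinks 2.2.1. The labels name Rnor_5.0 as the build and the methods RGSC3.4, so positions are those of the deposited annotation. The deposited values are a signal per locus, fragment numbers scaled by the authors with a size factor per library, and low values were whole multiples of 1 step, within 0.1 fragments. The step gave the depth and fragments per library, with a floor of 3 fragments for counting error.

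Loci with a gene name and a mean of at least 10 were tested in R 4.3.3 with limma 3.58.1 (trended eBayes) on the log2 of the normalized count plus 1, at a Benjamini-Hochberg adjusted p of 0.05, after testing on simulated data. The 15693 unnamed loci (37.1%) were left out. Alternatives were other scalings, pseudocounts and filters, edgeR 4.0.16 and DESeq2 1.42.0 on recovered fragments, all groups in 1 fit, the rat as a block and each library left out. Libraries of the same rat deviated from their group means with a median r of 0.187 (0.00393 to 0.569, over 0.1 in 10 of 12 rats), and the pairing comes from the rat numbers of the labels. The 10 members and the lists were chosen with earlier results of these data known. The members, the receptors, partners and targets that passed, and the 2 genes most alike to each member were to be named (1 is not reported here), and cluster neighbours and marker lists are given by counts. Fits of receptors, partners and targets without rat 45 were added after seeing the data. The 4 motifs were chosen after the data were seen.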

Additional observations from a re-analysis of the deposited data

Results flagged for a closer look

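Over 40 groups of 6 values (10 genes in 4 groups), 6 had 1 library far from the rest of its group, where chance flags about 1 in 20. In sham thalamus, rat 32 was the highest of 6 for S100a1 (1409, others 1018 to 1108), S100a9 (15.9, others 4.95 to 7.64) and S100b (73895, others 54485 to 60198), and rat 34 for S100a11 (145, others 56.7 to 86.1). Rat 45 was the highest for S100a6 in TBI cortex (1582, others 730 to 1046) and for S100a11 in TBI thalamus (368, others 96.6 to 131).

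The effect of injury differed between the regions for S100a10, by 0.38 on the log2 scale (adjusted p = 0.0451), and for S100b, by 0.37 (adjusted p = 0.015), in limma's test of the difference itself.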

How the results depend on the processing

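The counts of 7 S100 genes in cortex and 7 in thalamus changed under none of the settings by more than 1.5 times, with 7 to 7 and 6 to 8 over the fits that leave out 1 library. Between the regions the counts were 6 to 8 in sham-operated controls and 6 to 7 in TBI animals over such fits. The count of 2 genes whose effect differed between regions fell to 1 without a filter on low values, to 1 by edgeR (5 sham thalamus libraries), to 1 without both libraries of rat 45 (chosen after seeing the data) and to 0 at a threshold of 0.01, and leaving out 1 library gave 1 to 3. With the rat as a replicate block the count stayed at 2, it was 7 for the regions in sham-operated controls and 7 in TBI animals, where S100a11 was gained. Directions turned for 2 genes that did not pass, S100a9 in the cortex (-0.12 without TBI rat 56, up to 0.36 over such fits) and the regional difference of S100a11 (-0.38 to 0.093 over such fits, 0.071 without TBI cortex rat 45, 0.093 without sham thalamus rat 34, 0.003 without TBI thalamus rat 24). In the thalamus S100a11 passed with upper quartile scaling (adjusted p = 0.0499), by DESeq2 with 5 sham thalamus libraries (0.0342) and with all 24 libraries in 1 fit (0.0255). The share of called loci that were higher moved with scaling, from 49.1% to 60.6% in the cortex by upper quartile, from 41% to 54.9% by TMM and 57.9% by upper quartile in the thalamus and from 37.5% to 53.2% and 47.9% for the regional difference. S100a8 lay near the floor and was not tested. The causes were not tested.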
